A study of Mus musculus with 4 samples.

Results

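The control mouse embryo at embryonic day 5.5 (E5.5) was described across genes from the 2 libraries labelled as wild type, of 4 libraries in the series. All 47885 gene rows of those 2 libraries were used, with no choice of genes by level. Each library was made from 1 whole embryo of the C57BL/6 strain, labelled Mettl14+/+ and called WT replicate 1 and WT replicate 2 here. The other 2 embryos, of the same strain and age and labelled Mettl14-/-, entered only the scaling between libraries. METTL14 is the partner subunit of METTL3 in the enzyme that writes N6-methyladenosine on RNA, and the study asked what its loss changes at a stage when mutants still look normal. Per the labels' protocols, an embryo was classed as a control because its amplified cDNA held Mettl14 mRNA by qPCR, which does not separate +/+ from +/- embryos. Mettl14 stood at 34.0 CPM in WT replicate 1 and 31.6 CPM in WT replicate 2, against 4.63 and 8.04 CPM in the Mettl14-/- libraries, and the same cDNA had been used for the classing.

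At this age the mouse embryo is an egg cylinder. An inner cup of epiblast, the source of the body, sits below the extraembryonic ectoderm, the trophoblast stem cell tissue that builds the placenta, and both are wrapped in visceral endoderm, an absorptive layer that feeds the embryo and patterns it. The epiblast has left the naive pluripotent state of the blastocyst and has not yet formed a primitive streak. NODAL from the epiblast, BMP4 from the extraembryonic ectoderm and their inhibitors from the anterior visceral endoderm set up the body axis in the next day of development.

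Gene levels are given as CPM, which are counts scaled to the size of the library, when the 2 embryos are compared. They are given as TPM, which also divides by the summed exon length of the gene, when genes are compared with each other. WT replicate 1 had 16108062 counts and WT replicate 2 had 20121289, so that 1 count equalled 0.059 and 0.0534 CPM. A gene at 0 counts in both could still reach 3 counts over both libraries, or 0.0841 CPM. The libraries were amplified and carry no molecular identifiers, so this floor and all intervals below hold only for the error of counting reads. With 1 embryo set against 1 embryo there was no replicate check and no test, so differences between the embryos are given as ratios with exact 95% counting intervals.

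Of the 47885 rows, 12326 (25.7%) were expressed in both embryos, taken as 1 CPM or more in each, and 24844 (51.9%) had no count in either. Among the 21637 protein-coding genes, 11319 (52.3%) were expressed in both and 5733 (26.5%) had no count. At higher levels, 7542 genes reached 10 CPM in both embryos, 1788 reached 100 CPM and 102 reached 1000 CPM. The 10 most counted genes took 5.08% and 5.50% of all counts in WT replicates 1 and 2, the top 100 took 22.7% and 23.6%, and the top 1000 took 59.5% and 61.2%. Protein-coding genes held 98.2% and 98.9% of the annotated counts.

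Across the 10121 genes that reached 5 CPM in the higher embryo, log2 CPM correlated between the embryos at a Pearson r of 0.93 and a Spearman rho of 0.937. These values are across genes of 2 libraries, and genes are not independent replicates. The median absolute log2 ratio was 0.439. Of these 10121 genes, 817 (8.07%) were at least 2-fold higher in WT replicate 2 and 690 (6.82%) were at least 2-fold higher in WT replicate 1. Scaling by library totals in place of TMM lowered every log2 ratio by 0.179 and turned this split into 482 and 1038 genes. The share past 2-fold depended on level, at 39.8% of genes with a mean of 1 to 5 CPM and 4.69% of genes above 1000 CPM.

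Promoter windows held more CpG where the gene's level was higher, and 5 promoters are printed as examples of such windows. A window of 250 bases before to 50 bases after the gene start was available from RefSeq (build GRCm38.p6) for 16348 of the 21637 protein-coding genes. CpG, a C followed by a G, is the site that DNA methyltransferases modify, and many promoters active in every cell lie in CpG-rich islands. The median window held 2 CpG among genes with no count in either embryo, 18 among genes at 1 to under 10 CPM, 22 at 10 to under 100 CPM and 23 at 100 CPM or more. Windows with 5 CpG or fewer made up 78.3% of the genes with no count and 3.01% of those at 100 CPM or more. These shares describe the windows and were not tested. The first set below gives the 250 bases before the start, 5′ to 3′ on the gene's strand, with each CpG in capitals. Dnmt3b, the main de novo DNA methyltransferase of the epiblast, is at chr2:153649199-153649448 (plus strand) with 21 CpG in these bases. Utf1, a chromatin-bound pluripotency factor, is at chr7:139943606-139943855 (plus strand) with 14 CpG. Olfr1, an odorant receptor gene, is at chr11:73399496-73399745 (minus strand) with 0 CpG.
Dnmt3b: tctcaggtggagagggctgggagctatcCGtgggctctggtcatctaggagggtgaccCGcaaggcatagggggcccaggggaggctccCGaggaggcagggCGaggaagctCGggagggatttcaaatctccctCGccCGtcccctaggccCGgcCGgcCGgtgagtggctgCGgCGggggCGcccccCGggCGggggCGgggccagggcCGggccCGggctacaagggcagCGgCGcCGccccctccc
Utf1: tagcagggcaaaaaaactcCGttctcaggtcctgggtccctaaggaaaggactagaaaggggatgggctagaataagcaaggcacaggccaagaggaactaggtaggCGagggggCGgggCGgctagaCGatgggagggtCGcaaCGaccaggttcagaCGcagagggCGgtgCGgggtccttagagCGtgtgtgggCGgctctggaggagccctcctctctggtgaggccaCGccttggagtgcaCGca
Olfr1: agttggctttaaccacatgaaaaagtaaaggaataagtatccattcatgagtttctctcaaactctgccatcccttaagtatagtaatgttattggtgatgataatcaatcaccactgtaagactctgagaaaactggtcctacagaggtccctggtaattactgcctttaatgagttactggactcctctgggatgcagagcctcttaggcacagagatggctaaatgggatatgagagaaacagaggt

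**Figure D1:**
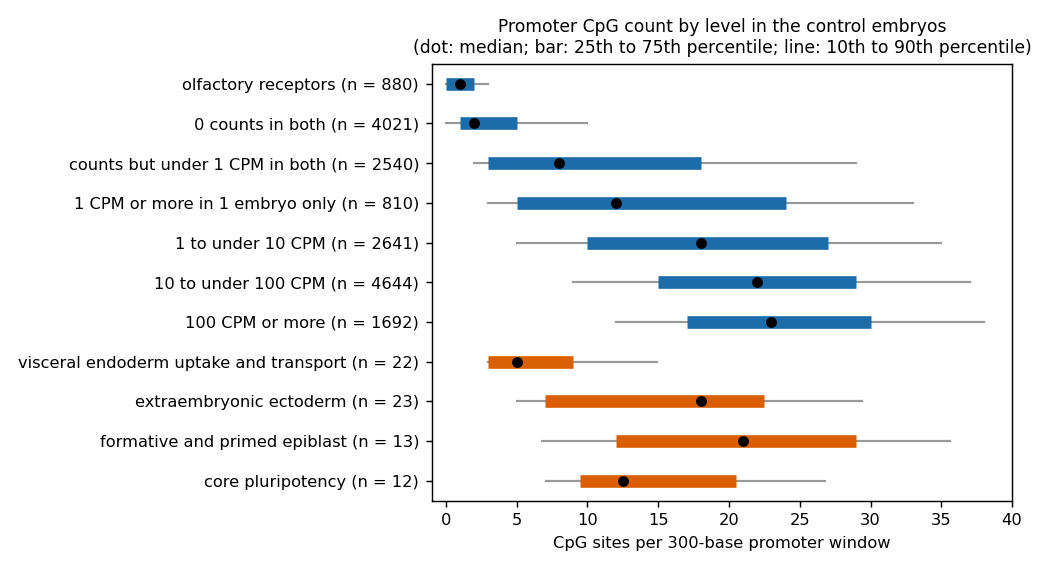
Number of CpG sites (x axis) in 300-base promoter windows of protein-coding genes, grouped by level in the 2 control embryos (blue) or by gene list (orange), with the median as a dot, the 25th to 75th percentile as a bar and the 10th to 90th as a line. The median goes from 2 CpG in genes with no count to 23 at 100 CPM or more, and the visceral endoderm uptake genes, at a median of 5, lie nearer to the silent genes than the epiblast and extraembryonic ectoderm lists do.

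Among the lineage lists whose windows were counted, the lowest median belonged to the uptake and transport genes of the visceral endoderm. They encode apolipoproteins, carriers and endocytic receptors, and 21 of 26 were expressed in both embryos. Their 22 matched windows, not chosen by level, held a median of 5 CpG. Of these windows 63.6% held 5 or fewer, against 30.6% of all 16348 windows. The regulators of the same tissue held a median of 22 CpG over 13 windows. The letters TATAAA of the TATA box were found on either strand in 7 of the 22 uptake windows (31.8%), against 12.6% of all windows and 26.9% of windows of genes with no count. They were also in 23.1% of the windows of the visceral endoderm regulators, 23.1% of formative and primed genes and 21.7% of extraembryonic ectoderm genes, so these letters were not particular to the uptake genes. The GATA factor motif, spelled AGATAA, was found in 1 of the 22 uptake windows (4.55%), in 3 of the 13 regulator windows (23.1%) and in 9.62% of all windows. Odorant receptor windows held the 2 motifs in 40.7% and 28.2% of cases. A match is a description of letters and not evidence of binding. The second set below shows 2 uptake genes with the TATA box letters in capitals. Afp, the fetal serum carrier alpha-fetoprotein, is at chr5:90490464-90490713 (plus strand), with TATAAA beginning 7 bases before the RefSeq start. Apob, the structural protein of large lipoproteins, is at chr12:7977427-7977676 (plus strand), with TATAAA beginning 60 bases before the RefSeq start. The GENCODE M21 gene models start elsewhere, at 90490737 for Afp and 7977648 for Apob, so these distances hold only for the RefSeq starts. The 300-base windows of Afp and Apob held 3 and 9 CpG, so only that of Afp held 5 or fewer.
Afp: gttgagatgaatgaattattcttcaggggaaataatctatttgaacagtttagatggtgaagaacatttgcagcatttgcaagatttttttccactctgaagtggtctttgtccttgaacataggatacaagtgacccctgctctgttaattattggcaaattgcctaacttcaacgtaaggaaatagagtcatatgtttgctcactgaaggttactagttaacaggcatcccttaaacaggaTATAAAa
Apob: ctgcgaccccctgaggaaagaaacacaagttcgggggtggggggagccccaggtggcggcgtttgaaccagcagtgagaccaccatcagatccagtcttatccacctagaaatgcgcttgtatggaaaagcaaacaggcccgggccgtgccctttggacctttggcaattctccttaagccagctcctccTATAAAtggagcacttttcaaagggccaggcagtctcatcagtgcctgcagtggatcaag

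Among the silent rows were nearly whole gene families of other tissues. Of 1065 odorant receptor genes, 1021 had no count in either embryo and 0 were expressed. The same held for 272 of 297 vomeronasal receptors, 54 of 56 keratin-associated proteins, which build hair, and 38 of 42 beta-defensins, which defend epithelia, with 0 expressed members in each family. Of 39 Hox genes, which pattern the trunk after gastrulation, 23 had no count. Hoxa10 reached 0.884 CPM in WT replicate 1 and 4.97 CPM in WT replicate 2. The prolactin family, a set of placental and pituitary hormones, had 16 of 25 members without a count and 0 expressed.

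The most abundant messages per length were those of growing cells, with a pair of lineage genes among them. Outside ribosomal protein and mitochondrially encoded genes, Ftl1, the light chain of the iron store ferritin, ranked highest at 7644 and 9870 TPM in WT replicates 1 and 2. It was followed by Rhox5, an X-linked homeobox gene of extraembryonic tissue, at 7433 and 6443 TPM. Ppia, a protein-folding isomerase, stood at 7412 and 6205 TPM, and the histone variant gene H2afz at 5734 and 6062 TPM. Dppa5a, an RNA-binding gene of pluripotent cells, stood at 4640 and 3972 TPM. For Rhox5, Ppia and Dppa5a the values of the 2 embryos lay close to each other, while Eif5a, a translation factor, stood at 3581 TPM in WT replicate 1 and 5900 TPM in WT replicate 2.

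The rest of the 25 highest genes by mean TPM were Mif, Npm1, Ptma, Gapdh, Prdx1, Eef1a1, Ldha, Ran, Hsp90ab1, Ranbp1, Pgam1, Calm2, Sumo2, Ubb, Slc25a5, Pfn1, Bex3, Gsto1 and Cfl1, with means between 2924 TPM for Cfl1 and 5278 TPM for Mif. They include the chaperones Npm1 and Hsp90ab1, the nuclear transport factors Ran and Ranbp1, the antioxidant enzyme Prdx1 and the actin regulators Pfn1 and Cfl1. Many of these genes have processed pseudogenes, so their levels depend on how the authors' counting placed shared reads. Of 82 cytoplasmic ribosomal protein genes, 80 were expressed, and the family took 7.74% and 6.92% of counts. Rps3a1 led them at 7411 and 7775 TPM. The exceptions were Rpl3l, a muscle paralog, at 0.884 and 0.214 CPM, and Rpl24 at 2.36 and 0.321 CPM, which overlaps another gene model.

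Mitochondrially encoded genes took 1.39% of counts in WT replicate 1 and 0.881% in WT replicate 2. mt-Nd1, a subunit of respiratory complex I, had 10424 and 6748 TPM. Its neighbours were uneven: mt-Co1 stood at 1917 and 1997 CPM, while mt-Co2 stood at 20.3 and 10.6 CPM, mt-Co3 at 17.2 and 11.2 CPM, mt-Atp6 at 19.2 and 9.99 CPM, and mt-Nd4l had no count. Near-identical nuclear copies of mitochondrial DNA share reads with these genes, and the counts of the low ones are uncertain.

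Core pluripotency genes, shared by all pluripotent states, were present throughout: 18 of 18 were expressed in both embryos. Utf1 stood at 796 and 960 CPM in WT replicates 1 and 2 and ranked 63 of all genes by mean TPM. Epcam, an epithelial adhesion gene, stood at 750 and 749 CPM, and Tdgf1, the NODAL co-receptor Cripto, at 229 and 351 CPM. The zinc finger regulator Sall4 had 147 and 158 CPM, and Dppa4, a chromatin factor paired with Dppa2, had 230 and 194 CPM. In these 5 genes neither embryo exceeded the other by 2-fold.

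The master regulators of pluripotency lay lower. Pou5f1, which encodes OCT4, had 28.4 CPM in WT replicate 1 and 47.5 CPM in WT replicate 2, with a mean of 45.4 TPM. Sox2, its partner, went the other way, with 31.5 and 17.7 CPM and a mean of 33.3 TPM. Nanog had 2.30 and 4.65 CPM, from 39 and 87 counts, and was the lowest of the 18 by mean TPM (4.15). Exons of Pou5f1 overlap another gene model over 317 bases.

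The naive state, that of the blastocyst epiblast and of ground-state embryonic stem cells, had 14 of 18 genes expressed, at levels that spread widely. Dppa5a, at 989 and 958 CPM, and Zfp42, the marker Rex1, at 99.6 and 112 CPM, were high in both embryos. Klf5 had 46.8 and 51.2 CPM, and Fgf4, a secreted signal from pluripotent cells to trophoblast, had 49.4 and 32.2 CPM. Esrrb, also a trophoblast stem cell gene, had 39.8 and 22.7 CPM. The naive Krüppel-like factors Klf2 and Klf4 lay at 6.72 and 9.24 CPM and at 3.30 and 2.83 CPM. Prdm14, a guardian of the naive state and of germ cells, had no count in either embryo, and Nr5a2, a nuclear receptor that drives Pou5f1, had 1 count in all. Tbx3 had 1.83 and 5.93 CPM, which put it past 2-fold, and so did Tdh, a threonine dehydrogenase, at 7.13 and 14.9 CPM.

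Formative and primed genes, which mark the post-implantation epiblast, had 16 of 18 members expressed. Dnmt3b stood at 1210 and 870 CPM, the highest CPM of the list in both embryos. Cldn6, a tight junction claudin, had 244 and 456 CPM. The POU factor Pou3f1, or Oct6, had 203 and 176 CPM, and Otx2, which drives exit from the naive state, had 101 and 110 CPM. Fgf5, the classical marker of the early post-implantation epiblast, had 71.2 and 92.9 CPM. The levels of Pou3f1, Otx2 and Fgf5 were thus similar in both embryos. Sox3, a neural and epiblast factor, had 54.3 and 48.7 CPM, and Etv5, an FGF-responsive ETS factor, had 122 and 84.4 CPM. Zic2, which is active in primed cells, was at 1.24 and 0.908 CPM, while its relative Zic5 had 88.8 and 50.3 CPM.

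**Figure D2:**
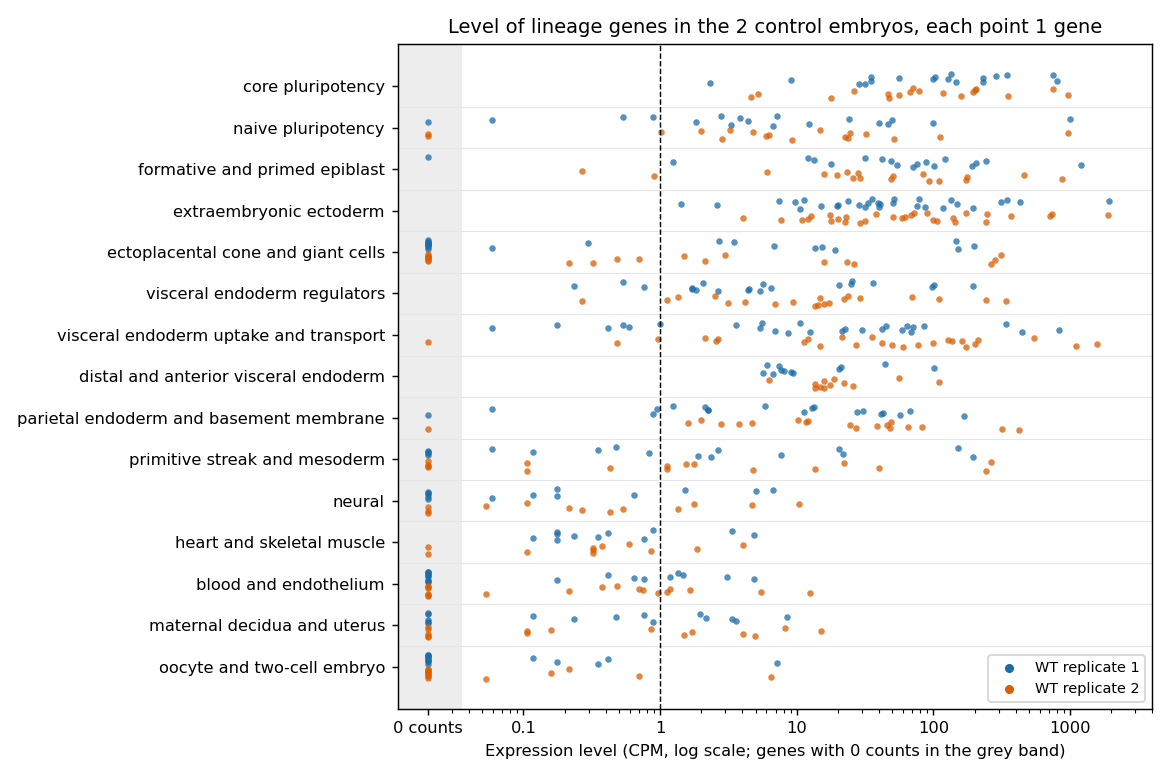
Level in CPM (x axis, log scale) of the genes of 15 lineage and cell type lists (rows) in WT replicate 1 (blue) and WT replicate 2 (orange), each point 1 gene, with genes at 0 counts drawn in the grey band and a dashed line at 1 CPM. All 18 core pluripotency and all 30 extraembryonic ectoderm genes lie to the right of the line in both embryos, while most heart and muscle, neural, and oocyte genes lie to its left.

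Extraembryonic ectoderm genes were present without exception, with 30 of 30 expressed in both embryos. Eomes, a T-box factor required for trophoblast stem cells, had 193 and 241 CPM, and Elf5, which locks in the trophoblast fate, had 118 and 143 CPM. Tfap2c had 86.6 and 106 CPM and Ets2, an inducer of Cdx2 in trophoblast, had 75.8 and 99.4 CPM. The secreted signal Bmp4 had 148 and 139 CPM, and Id2, a target of BMP signalling, had 428 and 713 CPM. For Bmp4, Eomes, Elf5, Tfap2c and Ets2 the embryos differed by less than 2-fold.

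Several members differed more. Cdx2, the founder transcription factor of trophoblast, had 10.5 CPM in WT replicate 1 and 29 CPM in WT replicate 2, 2.77-fold higher (95% counting interval 2.33 to 3.29). Tex19.1, a gene of placenta and germ line that restrains retrotransposons and has a close paralog, had 35.7 and 172 CPM, 4.81-fold higher (4.41 to 5.26). The epithelial keratins Krt18 and Krt7 had 343 and 732 CPM and 11.2 and 37.8 CPM, and the homeobox genes Rhox6 and Rhox9 had 23.6 and 68.0 CPM and 7.43 and 17.6 CPM. In all, 7 of the 29 members at 5 CPM or more were 2-fold higher in WT replicate 2 and 0 were so in WT replicate 1, beside 8.07% and 6.82% of all genes. Not every trophoblast regulator followed: Gata3 had 15.1 and 11.0 CPM, and Esrrb and Sox2, shared with the epiblast, were lower in WT replicate 2.

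Genes of the ectoplacental cone and of trophoblast giant cells, the first differentiated trophoblast, split in 2. Of 21 genes, 9 were expressed and 7 had no count in either embryo. The expressed ones included Hand1, a regulator of giant cell formation, at 151 and 262 CPM, Phlda2, an imprinted brake on placental growth, at 198 and 284 CPM, and Ascl2, a maternally expressed imprinted regulator, at 19 and 26.3 CPM. The silent ones were Tpbpa, the marker of spongiotrophoblast, the hormones Prl3b1 and Prl2c2, the cathepsins Ctsj and Ctsq, Psg17 and the nuclear receptor Pparg. The giant cell hormone Prl3d1 had 0 and 13 counts, and Gcm1, the driver of labyrinth branching, had 0 and 6 counts. Plac1, an X-linked gene of trophoblast, was past 2-fold in WT replicate 1 at 6.78 and 2.14 CPM.

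Visceral endoderm regulators were expressed in 17 of 20 cases, most of them at low levels, and more so in WT replicate 2. Gata4 had 2.65 CPM in WT replicate 1 and 13.7 CPM in WT replicate 2, 5.16-fold higher (3.74 to 7.25). Gata6, which starts the primitive endoderm fate, had 5.42 and 14.2 CPM, and the endoderm factor Sox17 had 1.83 and 6.95 CPM. Hnf4a, which runs the secretory and metabolic program, had 4.36 and 15.7 CPM. In each of these 4 transcription factors the higher value was in WT replicate 2. The endocytic adaptor Dab2 had 97.4 and 342 CPM. Foxa2 had 6.48 and 9.30 CPM, less than 2-fold apart. Of 14 members at 5 CPM or more, 7 were 2-fold higher in WT replicate 2 and 0 in WT replicate 1, beside 8.07% and 6.82% of all genes. Cebpa, which acts in later liver, had 0.236 and 1.12 CPM.

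The uptake and transport genes of this layer had a median level of 17.5 TPM, against 5.48 TPM for its regulators. The 2 lists overlapped. Dab2 of the regulator list, at a mean of 78.9 TPM, lay below Apoe (1500 TPM) but above Cubn (17.2 TPM). Apoa1, the main protein of high-density lipoprotein, had 441 and 1108 CPM and ranked 88 of all genes by mean TPM. Apoe had 822 and 1568 CPM and ranked 106. Both were higher in WT replicate 2, and so were the carriers of small molecules. Ttr, the thyroid hormone carrier, had 68.7 and 173 CPM, and Rbp4, the retinol carrier, had 42.0 and 99.0 CPM. The receptor complex that takes up maternal protein was complete, with Lrp2 (megalin) at 85.0 and 137 CPM, Cubn (cubilin) at 64.4 and 128 CPM and its partner Amn (amnionless) at 44.6 and 212 CPM. Among these receptors Amn differed the most, and Afp differed by more than any other member of the list. Afp had 8.67 and 59.7 CPM, 6.89-fold higher in WT replicate 2 (5.80 to 8.24). Of 26 genes, 21 were expressed. Of the 20 at 5 CPM or more, 14 were 2-fold higher in WT replicate 2 and 0 in WT replicate 1, beside 8.07% and 6.82% of all genes. All 23 at 1 CPM or more had a ratio above 1.

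All 12 genes of the distal and anterior visceral endoderm, the signalling centre that marks the future head side, were expressed. The secreted WNT inhibitor Dkk1 had 9.14 and 25.9 CPM, the NODAL and BMP inhibitor Cer1 had 6.66 and 15.8 CPM, and the NODAL inhibitor Lefty1 had 9.37 and 13.7 CPM. Hhex, a homeobox factor of this centre, had 5.66 and 14.9 CPM, Hesx1 had 8.02 and 17.4 CPM, and Sfrp5, a WNT binding protein, had 6.01 and 18.7 CPM. Dkk1, Cer1, Hhex, Hesx1 and Sfrp5 were past 2-fold in WT replicate 2, and Lefty1 was not. Lhx1 and Otx2, which the epiblast also uses, had 20.3 and 22.3 CPM and 101 and 110 CPM. The WNT receptor genes Fzd5 and Fzd8 were slightly lower in WT replicate 2.

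The list of parietal endoderm, which lays down the thick membrane outside the embryo, and of basement membrane proteins had 15 of 19 members expressed. Lamb1 and Lamc1, the beta and gamma chains of laminin, had 41.4 and 48.3 CPM and 42.7 and 64.7 CPM. Their partner, the alpha chain gene Lama1 (chromosome 17, 67697259 to 67822647 on the plus strand, mm10), had 0.884 CPM in WT replicate 1 and 27.3 CPM in WT replicate 2. The counts were 15 and 511, a ratio of 30.9 (18.5 to 55.6). Of the 3 chains of this laminin, 2 were thus within 2-fold and the alpha chain was not. The type IV collagens Col4a1 and Col4a2 had 27.4 and 82.6 CPM and 11.3 and 38.4 CPM. Both collagens were past 2-fold in WT replicate 2, as Lama1 was. The linker proteins nidogen 1 and 2 were not higher there, with Nid1 at 67.1 and 46.0 CPM and Nid2 at 30.6 and 24.3 CPM. The matrix gene Sparc had 167 and 421 CPM, Srgn, a proteoglycan core of parietal endoderm, had 56.9 and 318 CPM, and the parathyroid hormone receptor gene Pth1r had 12.9 and 49.0 CPM. Thbd, thrombomodulin of parietal endoderm and giant cells, had no count in either embryo. Of the 13 members at 5 CPM or more, 7 were 2-fold higher in WT replicate 2 and 0 in WT replicate 1, beside 8.07% and 6.82% of all genes.

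The NODAL pathway, which keeps the epiblast pluripotent and then patterns it, had a transcript at every step. Gdf1 was not analysed here, and 16 of the other 17 genes were expressed. Among ligands, Nodal had 13.5 and 27.8 CPM and Gdf3, its heterodimer partner, had 34.8 and 55.7 CPM. Among co-receptors, Tdgf1 exceeded its relative Cfc1, at means of 298 and 11.0 TPM. Both ligands and both co-receptors were higher in WT replicate 2. The convertase genes Pcsk6 and Furin, whose products cut pro-NODAL, had means of 14.9 and 0.791 TPM. Of the type I receptors, Acvr1b (ALK4) had 8.25 and 8.34 CPM and Acvr1c (ALK7) had no count in either embryo. The type II receptors Acvr2a and Acvr2b had 23.1 and 18.2 CPM and 27.7 and 32.2 CPM.

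Among its transducers, Smad2 had 36.3 and 69.9 CPM, Smad3 had 21.6 and 19.3 CPM and Smad4 had 64.5 and 96.6 CPM. Foxh1, the DNA-binding partner of SMAD2, had 33.0 and 49.7 CPM. The feedback inhibitor Lefty2 had 1.71 and 7.48 CPM, 4.38-fold higher in WT replicate 2 (2.92 to 6.77). Past 2-fold in that embryo were 4 of 15 members at 5 CPM or more (Nodal, Cfc1, Lefty2 and Cer1), beside 8.07% of all genes.

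In the BMP pathway, which induces germ cells and mesoderm from the epiblast's rim, 16 of 21 genes were expressed. Bmp4 was the ligand with the highest mean level (175 TPM), followed by Bmp8b (34.8 TPM), a partner made in the extraembryonic ectoderm. Bmp2 had 2.06 and 1.34 CPM and Bmp5 had no count. The receptor gene Bmpr1a had 78.7 and 69.9 CPM, whereas Bmpr1b had 1.06 and 0.107 CPM. Smad1 and Smad5 had 29.1 and 27.3 CPM and 15.1 and 16.2 CPM, while Smad9 stayed below 1 CPM. Bmp4, Bmp8b, Bmpr1a, Smad1 and Smad5 were within 2-fold between the embryos. The target gene Id3 had 352 and 278 CPM and Id1 had 46.1 and 50.8 CPM. The secreted inhibitors were low, with Nog at 0.354 and 1.28 CPM and Chrd at 4.42 and 1.34 CPM. Msx2, also a BMP target, was 2-fold higher in WT replicate 2 (3.01 and 12.9 CPM), and Bmpr2 was 2-fold higher in WT replicate 1 (27.2 and 11.1 CPM).

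The canonical WNT pathway, which starts the primitive streak, had its receptors and effectors but few of the ligands of that event. Of 28 genes, 19 were expressed. Wnt3, the ligand needed for the streak, had 0.825 and 0.428 CPM, and Wnt3a had no count. Wnt7b, made in extraembryonic ectoderm, had 39.5 and 61.8 CPM, and Wnt6 had 11.8 and 22.1 CPM. Ctnnb1, encoding beta-catenin, had 276 and 223 CPM, and the nuclear effectors Tcf7 and Tcf7l1 had 54.6 and 64.2 CPM and 54.0 and 40.6 CPM. The direct targets Axin2 and Sp5 were low and went in opposite directions, with Axin2 at 38 and 6 counts and Sp5 at 0 and 44 counts. Porcn, the enzyme that makes WNT proteins secretable, had 2.89 and 11.2 CPM. Past 2-fold were Porcn, Dkk1 and Sfrp5 in WT replicate 2 and Lef1, at 49.0 and 19.6 CPM, in WT replicate 1.

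FGF signalling, which the epiblast uses to support trophoblast stem cells, had 19 of 20 genes expressed. The ligands with the highest means were Fgf5 (89.0 TPM), Fgf8 (61.5 TPM) and Fgf4 (35.4 TPM), and Fgf3 was at 0.295 and 1.44 CPM. The receptor genes Fgfr1 and Fgfr2, used by epiblast and trophoblast, had 49.8 and 42.7 CPM and 50.9 and 50.8 CPM. Dusp6, a phosphatase induced by this pathway, had 114 and 116 CPM. The feedback inhibitors Spry2 and Spry4 were 3.51-fold (2.77 to 4.48) and 2.24-fold (1.92 to 2.62) higher in WT replicate 1, at 17.5 and 4.97 CPM and at 30.1 and 13.4 CPM. Fgf10 was 2-fold higher in WT replicate 2, at 4.66 and 12.7 CPM.

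DNA methylation returns to the genome at implantation, and its enzymes were abundant: 8 of 9 genes were expressed. After Dnmt3b, with a mean of 563 TPM, came Uhrf1 (122 TPM), which brings DNMT1 to replicated DNA, Dnmt3l (99.2 TPM), the catalytically inactive cofactor, and Dnmt1 (38.5 TPM), the maintenance enzyme. Dnmt3a had a mean of 30.1 TPM and the demethylating dioxygenase gene Tet1 of 23.5 TPM. Tet3 had a mean of 4.26 TPM and Tet2 of 0.696 TPM. Dnmt3c, a male germline enzyme, had 3 and 0 counts. Of the 7 members at 5 CPM or more 0 were past 2-fold, beside 8.07% and 6.82% of all genes in the 2 directions, and with so few members these shares cannot be told apart.

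Imprinted genes, which are read from 1 parental copy, were expressed in 19 of 23 cases. The growth-limiting noncoding RNA H19 had 571 and 416 CPM, Snrpn had 192 and 298 CPM and Peg3 had 179 and 125 CPM. Igf2, the growth factor next to H19, had 85.4 and 72.7 CPM. Dlk1 had 0.943 and 1.55 CPM and Plagl1 had 15 and 0 counts. Mest and Sgce were 2-fold higher in WT replicate 2, at 36.0 and 93.2 CPM and at 6.78 and 16.7 CPM. Kcnq1ot1, the RNA that silences the domain of Cdkn1c and Phlda2, was 4.47-fold higher in WT replicate 1 (4.15 to 4.82), at 205 and 46.0 CPM, while Cdkn1c had 58.8 and 82.8 CPM. Kcnq1ot1 lies antisense to Kcnq1 and shares 1119 exon bases with it and with small RNA models, and without strand those reads cannot be told apart.

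Cell cycle and glycolytic genes were high. Cdk4 had 966 and 1323 CPM, Ccnb1 had 565 and 702 CPM and Cdk1 had 453 and 509 CPM, while the cell cycle inhibitors Cdkn1b and Cdkn2a had 5.54 and 3.85 CPM and 3 and 2 counts. The inhibitor Cdkn1a had 22.7 and 14.6 CPM, and the imprinted inhibitor Cdkn1c was higher, as given above. Of 17 cell cycle genes 16 were expressed. Ccnd3, a D-type cyclin, was 3.36-fold higher in WT replicate 2 (3.17 to 3.56), at 87.1 and 293 CPM, and its exons overlap those of Bysl. All 17 glycolysis genes were expressed and took 2.42% of counts in WT replicate 1 and 3.39% in WT replicate 2. Gapdh led by CPM, with 5057 and 8019, and Slc2a1, the main glucose transporter of early embryos, had 377 and 517 CPM against 82.1 and 171 CPM for Slc2a3. Tpi1 and Slc2a3 were past 2-fold, and Hk2, a hexokinase, was lower in WT replicate 2 at 120 and 66.2 CPM.

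Markers of lineages that arise after this stage were mostly at or near 0. Of 17 primitive streak and mesoderm genes 7 were expressed, of which Eomes, Hand1, Gsc and Lhx1 also belong to trophoblast or visceral endoderm. The streak gene T (Brachyury) had 40 counts in WT replicate 1 and 2 counts in WT replicate 2, or 2.36 and 0.107 CPM. Mesp1 and Tbx6, which mark nascent mesoderm, had no count, and Mixl1 had 1.89 and 4.81 CPM. Among 13 neural genes 3 were expressed (Tubb3, Olig2 and Map2), and Sox1, Pax3 and Neurog2 had no count. Of 11 heart and skeletal muscle genes 2 passed 1 CPM in both embryos, Des at 3.36 and 4.06 CPM and Myl7 at 4.89 and 1.87 CPM. Among 11 endoderm genes of later organs Alb, Ins1, Cym, Cyp7a1 and Nkx2-1 had no count, and 3 were expressed: Cdx2, shared with trophoblast, Vil1, a brush border protein gene, at 3.77 and 11.1 CPM, and Pdx1 at 1.24 and 1.66 CPM. Cdx2 and Vil1 were past 2-fold in WT replicate 2.

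Germ cell genes were mostly expressed: 9 of 11 reached 1 CPM in both embryos and 1 had no count. Dppa3, or Stella, had 24.2 and 24.5 CPM, and the meiotic gene Sycp3 had 18.3 and 20.5 CPM. The RNA helicase gene Ddx4 had 13.2 and 16.1 CPM and the RNA-binding gene Dazl had 7.37 and 7.80 CPM. In these 4 genes the embryos differed by less than 2-fold. Prdm1, the first regulator of primordial germ cells, which the visceral endoderm also expresses, had 2.00 and 4.06 CPM, and Nanos3 had 6 and 2 counts. Past 2-fold in WT replicate 1 was Dnd1, an RNA-binding gene of germ cells, at 7.25 and 3.10 CPM. Of 14 oocyte and two-cell embryo genes, 8 had no count, among them Zp2, Bmp15, Nlrp5 and Zscan4d. Zp3, a zona pellucida gene, was the exception at 7.19 and 6.47 CPM.

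Since a dissected egg cylinder can carry maternal tissue, markers of decidua and blood were read as well. In the decidua and uterus list 5 of 15 genes were expressed and 5 had no count in either embryo (Esr1, Hand2, Hoxa11, Prl8a2 and Gzmg), and the summed level of the list was 22 CPM in WT replicate 1 and 36.8 CPM in WT replicate 2. Dcn, a stromal proteoglycan, was the highest by CPM at 8.49 and 15.1, and Pgr, the progesterone receptor gene, had 3.60 and 1.5 CPM. The fibroblast collagens Col3a1 (8 and 2 counts) and Col1a1 (4 and 2 counts) were nearly absent, while Col1a2 had 37 and 32 counts, or 2.18 and 1.71 CPM. Among members at 5 CPM or more, Cryab, a small heat shock protein gene, was past 2-fold at 1.95 and 8.18 CPM. Hoxa10, also on this list, lay just below that level at 0.884 and 4.97 CPM. It was 5.62-fold higher in WT replicate 2 (3.24 to 10.4). Des, also on this list, had 3.36 and 4.06 CPM. In the blood and endothelium list 3 of 18 genes were expressed, and the globins Hba-x, Hbb-y and Hbb-bh1, the endothelial genes Cdh5 and Emcn and the macrophage gene Lyz2 had no count. Its summed level was 14 and 25.3 CPM, led by Gata1, a blood regulator, at 4.89 and 12.4 CPM. Ptprc, carried by white blood cells, had 0 and 14 counts, and the myeloid factor gene Spi1 had 0 and 31 counts.

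Both control embryos expressed Xist, the RNA that coats the inactive X chromosome, at 202 and 59.8 CPM. The Y-linked genes Ddx3y, Eif2s3y and Kdm5d had no count in either library, and Uty had 4 and 1 counts. Exons of Xist overlap those of its antisense partner Tsix, which had 3.07 and 1.18 CPM. Among immediate early and heat shock genes, which dissection and handling can induce, Fos had 14.1 and 9.83 CPM, Fosb 4.07 and 0.428 CPM, Atf3 3.12 and 0.214 CPM, Hspa1b 4.13 and 9.30 CPM, and Dnajb1 70.4 and 148 CPM.

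**Figure D3:**
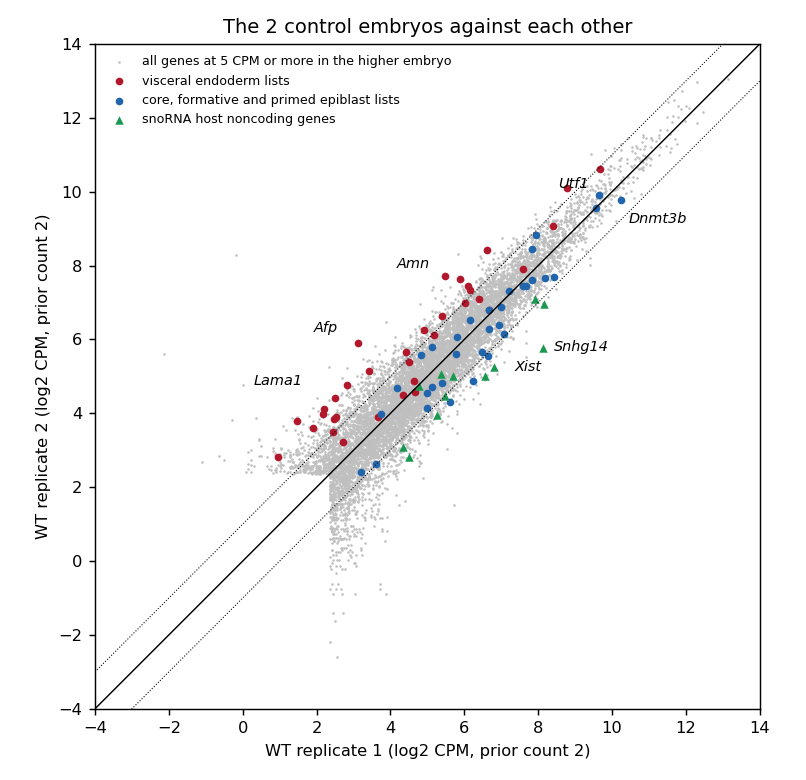
Log2 CPM (prior count 2) of WT replicate 1 (x axis) against WT replicate 2 (y axis) for the 10121 genes at 5 CPM or more in the higher embryo. The visceral endoderm lists are in red and the core, formative and primed epiblast lists in blue. Host genes of small nucleolar RNAs, picked after their values were seen and all noncoding by annotation except Snhg11, are green triangles. The solid line marks equal levels and the dotted lines a 2-fold difference. Most red points lie above the diagonal. All green ones lie on or below it, but nothing is read from this, since they were picked for their values.

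Set side by side, the lists differed in how they divided between the embryos. The median log2 ratio of WT replicate 2 over WT replicate 1 was 1.33 for the visceral endoderm uptake genes (members at 1 CPM or more, prior count 2) and 1.23 for the visceral endoderm regulators. It was 1.06 for parietal endoderm and basement membrane, 0.68 for the distal and anterior visceral endoderm, 0.39 for extraembryonic ectoderm, -0.18 for core pluripotency and -0.40 for formative and primed epiblast, beside -0.02 over all 14348 genes at that level. Definitive and adult endoderm had 0.92 over 4 genes, with Cdx2 shared with trophoblast. Positive medians were not particular to endoderm. Primitive streak and mesoderm had 0.81, blood and endothelium 0.70, NODAL pathway 0.60 and decidua and uterus 0.54. Ectoplacental cone and giant cells had 0.47 and glycolysis 0.45. These lists held 6 to 17 genes each at that level, some shared with other lists. The summed level was 2164 and 4689 CPM for the uptake genes, and 2527 and 2212 CPM for formative and primed genes. The signs of the first 7 medians given here held with library totals, with RLE size factors and with a prior count of 0.5. They also held with a 5 CPM filter and with the exon length trend removed. The naive pluripotency list, also of the epiblast, had a median of 0.27, with 12 of 16 genes above 0. In whole-embryo RNA, fewer cells of a type and less RNA per cell cannot be told apart. The decidua and blood sums given above were also higher in WT replicate 2, and their part in the endoderm difference was not tested.

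**Figure D4:**
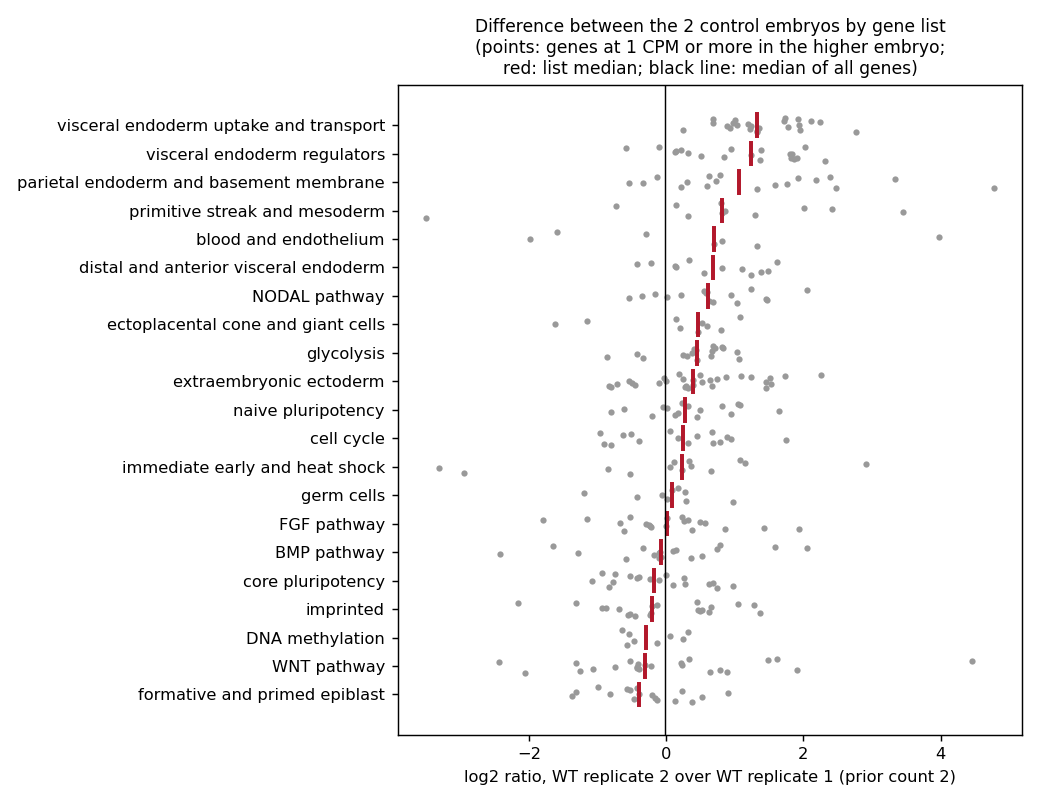
Log2 ratio of WT replicate 2 over WT replicate 1 (x axis, prior count 2) for genes at 1 CPM or more in the higher embryo, by gene list (rows with at least 7 such genes), with each gene as a grey point, the list median in red and the median of all genes as a black line. The visceral endoderm uptake list has the highest median, 1.33, with every point to the right of the line, and the formative and primed epiblast list has the lowest, -0.40.

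Genes past 2-fold were also counted in the core and the formative and primed epiblast lists. Of the 17 core genes at 5 CPM or more, 1 was 2-fold higher in WT replicate 1. Of 16 formative and primed genes, 3 were: Sox11, at 75.3 and 29.1 CPM, Lef1, and Sfrp2, at 12.1 and 6.04 CPM. Their counts, 1 of 17 and 3 of 16, stand beside 6.82% of all genes. In WT replicate 2, 0 members of either list were 2-fold higher, beside 8.07% of all genes. With so few members, these counts cannot be told apart from the shares of all genes. Of the 11 naive list members at 5 CPM or more, 2 were 2-fold higher in WT replicate 2 and 0 in WT replicate 1. Beside 8.07% and 6.82% of all genes, so small a list shows no lean by this count.

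Among the 6487 genes that reached 20 CPM in the higher embryo and are neither predicted models, pseudogenes nor models without a symbol, the 15 most in favour of WT replicate 2 were all protein-coding. After Lama1 came Aqp8, a water channel, at 4.89 and 38.4 CPM, 7.84-fold (6.24 to 9.96), then Afp and the LIM protein gene Csrp1, at 14.5 and 88.4 CPM. Srgn, Ccnb1ip1, Gmppb, Tex19.1, Amn, Ldoc1, Npl, Dgat2, Tdrp and Tmem167b were also among them, with ratios from 5.59 for Srgn to 4.12 for Tmem167b. Npl encodes a lyase of sialic acid and Dgat2 an enzyme of triglyceride synthesis, and their levels were 34.9 and 161 CPM and 27.9 and 125 CPM. Afp and Amn, 2 of the 15, belong to the visceral endoderm lists, which hold 46 genes together.

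The 15 most in favour of WT replicate 1 were of another kind, with 11 protein-coding genes and 4 noncoding ones. Bicd1, an adaptor of the dynein motor, led at 46.5 and 8.07 CPM, 5.76-fold (4.83 to 6.90). The noncoding genes were Mir17hg, the host of the miR-17 to 92 cluster, at 56.1 and 10.8 CPM, Snhg14, an imprinted host of small nucleolar RNAs, at 280 and 54.7 CPM, Kcnq1ot1 and Xist. Next came Cramp1l, Trove2, Zfp654, Map3k12, Scai, Usp26, Zfp407, Kansl1l, Pou2f1 and Armcx2, with ratios from 4.48 for Cramp1l to 3.43 for Armcx2. Snhg14 and Xist overlap antisense genes, Ube3a and Tsix.

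These 2 sets differed in gene length. The median summed exon length was 9541 bases in the 15 genes higher in WT replicate 1 and 2196 bases in the 15 higher in WT replicate 2. The same held across all genes. The median log2 ratio was 0.38 in genes with 2000 to 3000 exon bases and went down to -0.53 in the 587 genes above 12000, and it was -0.19 below 1000. Past 2-fold in WT replicate 1 were 4.05% of the first of these bands and 17.5% of the longest. The visceral endoderm genes had a median above 0 in each of the 8 length bands (2 to 7 genes each), from 0.32 to 2.11. With the length trend removed, the counts were 537 and 633 genes for WT replicates 2 and 1.

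**Figure D5:**
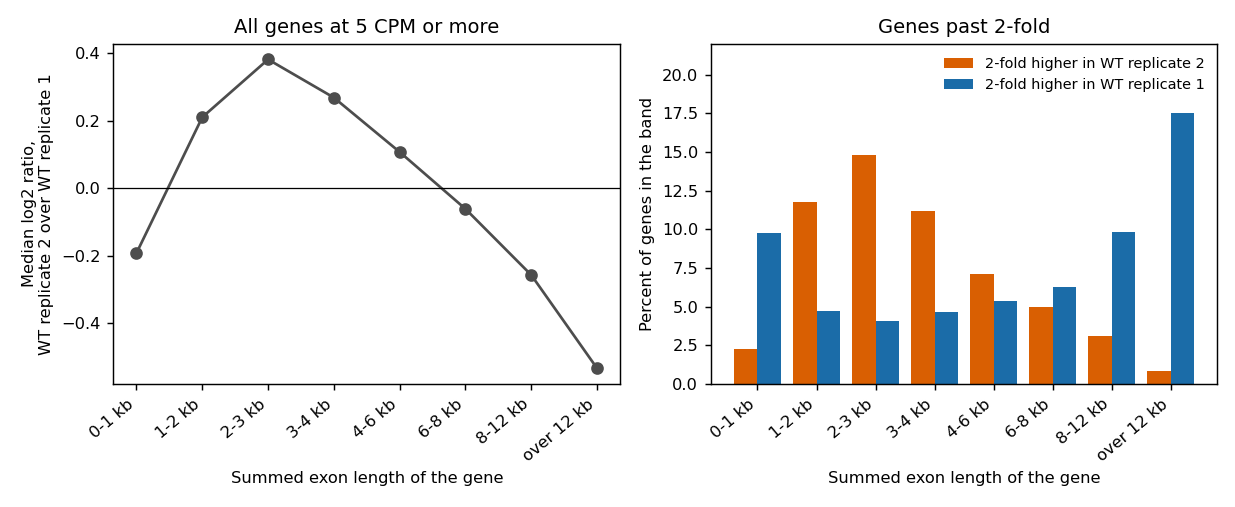
Genes at 5 CPM or more in the higher embryo by summed exon length (x axis), with the median log2 ratio of WT replicate 2 over WT replicate 1 at left and the percent of genes past 2-fold in each direction at right. The median falls from 0.38 at 2 to 3 kb to -0.53 above 12 kb, where 17.5% of genes are 2-fold higher in WT replicate 1 and 0.852% in WT replicate 2.

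Noncoding transcripts also divided unevenly. The median log2 ratio was -0.52 over 77 long intergenic noncoding genes, -0.74 over 44 antisense genes and -1.94 over 73 unspliced models of the annotation's TEC class, beside 0.09 over 9653 protein-coding genes. A group of 12 host genes of small nucleolar RNAs, picked after their values were seen, lay below equality in all 12 cases, with a median of -1.22, and 8 were past 2-fold in WT replicate 1, beside 6.82% of all genes; since the group was picked for its values, nothing is read from this count. Gas5, a growth-arrest transcript, had 284 and 126 CPM, Snhg1 had 111 and 38.3 CPM, Zfas1 had 94.6 and 31.8 CPM and Snhg8 had 22.5 and 6.89 CPM. Snhg20 was nearly even at 27.1 and 26.8 CPM. Mitochondrially encoded genes had a median of -0.73 and cytoplasmic ribosomal protein genes of -0.18. Long genes, noncoding genes and mitochondrial genes thus moved together with the embryo, and their part in the differences between lists was not tested.

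Complete absence in 1 embryo of a gene well expressed in the other was rare. Only 3 genes had 5 CPM or more in 1 embryo and 3 counts or fewer in the other. Of these, 1 has a symbol outside the predicted models: Pnp2, a purine nucleoside phosphorylase gene with a near-identical neighbouring copy, had 97 counts in WT replicate 1 and 1 count in WT replicate 2. Of the genes counted in 1 embryo and not in the other, 3438 were counted in WT replicate 1 and 1553 in WT replicate 2, with medians of 3 and 2 counts.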

How the data were processed

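Each library held the polyadenylated RNA of 1 embryo at E5.5, amplified with the Smart-Seq v4 chemistry and read as 150-base pairs, per the labels' protocols. The authors deposited whole-number read counts for each gene, with no normalisation. The submitters' processing notes name TopHat, Cufflinks and mm10, with no version. Neither the program used for counting nor its strand mode or annotation is stated: not given in the sources used here. Of 47885 rows, 46574 were found in GENCODE M21, 816 were models without an Ensembl identifier and 495 were not found.

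Counts were scaled with TMM (edgeR 4.0.16, R 4.3.3) over the 4 libraries, on 15563 genes passing filterByExpr (minimum count 10, minimum total 15). TPM used exon lengths of M21. Python 3.11.15, pandas 2.3.3 and scipy 1.17.1 gave levels, log2 ratios (prior count 2) and exact intervals, checked on simulated data. No test compared the 2 embryos. Alternatives changed the scaling, thresholds, fold and prior count. Named genes were the 25 highest by TPM, members of 27 lists, all sex-linked list genes and the 15 largest ratios per direction at 20 CPM or more, leaving out predicted genes, pseudogenes and models without a symbol. Hox, snoRNA host, mitochondrial and near-absent genes were named after their values were seen. Members and lists were chosen with earlier results of these data known. A few genes are counted in totals but not reported here.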

Additional observations from a re-analysis of the deposited data

How the results depend on the processing

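The numbers of expressed and silent genes kept within 1.5 times under every setting tried: 12193 expressed genes with library totals, 12326 with RLE size factors, 12153 at 1 TPM and 9057 at 5 CPM, and 28332 silent genes at 3 counts or fewer. With 1 embryo alone, expressed genes ranged from 12919 to 13755 and silent genes from 26397 to 28282. The counts of genes past 2-fold moved more. Genes higher in WT replicate 2 (817) became 482 with library totals, 3643 with no low-count filter, 521 at 20 CPM, 56 at 4-fold and 537 with the exon length trend removed, a setting chosen after seeing the data. Genes higher in WT replicate 1 (690) became 1038, 6622, 225 and 132 under the first 4 of these, and 633 under the last. RLE size factors gave 796 and 707. Of 27 lists, 3 had a median of the other sign under at least 1 setting: germ cells and the FGF pathway with library totals, and the FGF pathway and immediate early genes with the length trend removed. Of 357 named genes, 19 changed sign with library totals, each with an absolute log2 ratio of 0.17 or less, and 0 did with RLE; none of the 92 past 2-fold did. No paired analysis was possible because no test was made between 2 single embryos of 1 group. Depth limits genes below about 1 CPM, where 1 count is 0.059 or 0.0534 CPM.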

Other observations

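The largest ratios between the control embryos lay outside the genes named above. At 20 CPM or more in the higher embryo, 2 rows left out of that naming exceeded Lama1 in favour of WT replicate 2, and 3 exceeded Bicd1 in favour of WT replicate 1. Gm3375, a processed pseudogene on chromosome 7, had 13 counts in WT replicate 1 and 5866 in WT replicate 2, or 0.766 and 313 CPM. A gene model without an Ensembl identifier had 2 and 902 counts. The 3 in the other direction were also models without an identifier, and the largest of them had 886 and 51 counts. These rows were singled out after their values were seen. The counting of reads that a pseudogene shares with its parent gene is uncertain here.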
